A study of Mus musculus with 10 samples.

Results

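The BCL2 family of apoptosis regulators was described in whole-liver RNA through 10 genes taken from the raw count table by symbol, Bmf, Bbc3, Bcl2l11, Pmaip1, Bid, Bax, Bak1, Bcl2, Bcl2l1 and Mcl1. All 10 were found among the 24537 gene symbols of the table, and all 10 were among the 13909 genes kept by the filter on low counts. The family was selected on a measured value, the higher count of Bmf in old than in young livers, so every value from a comparison of old with young livers is given below as a description, and only the comparisons among old livers carry a test. The livers came from male mice, and hepatocytes were edited by an AAV8 virus that carries saCas9 under the hepatocyte promoter TBG and a guide RNA under U6. Every group received this virus, the controls included. The young group held 3 livers with the genotype Rosa26-KO from mice aged 9 months, injected at 7 months. The old control group held 3 livers with the genotype Rosa26-KO from mice aged 25 months, injected at 23 months. The knockout group held 4 livers from mice of that same age and injection time, 2 with the genotype Cd44-KO_g4 (replicates 1 and 2) and 2 with Cd44-KO_g2 (replicates 3 and 4). Since only hepatocytes are targeted, the other cells of the liver keep an intact Cd44. The labels do not say whether each liver came from a separate cage or litter, so p-values measure the spread between these samples.

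BCL2 family proteins decide whether the outer mitochondrial membrane is breached in the intrinsic pathway of apoptosis. The effectors BAX and BAK form pores that release cytochrome c, and the guardians BCL2, BCL-XL (encoded by Bcl2l1) and MCL1 hold them in check. BH3-only proteins, among them BMF, PUMA (Bbc3), BIM (Bcl2l11), NOXA (Pmaip1) and BID, sense stress and either neutralise the guardians or engage the effectors directly. Hepatocytes depend on BCL-XL and MCL1 for survival, and BID links death receptors at their surface to the mitochondria. These proteins are also controlled by phosphorylation, cleavage and turnover, which RNA counts do not show.

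Total counts lay between 15821198 and 21710228 per liver, at which 3 counts correspond to 0.138 to 0.190 CPM, the field's unit for counts scaled to a common library size. Values below are CPM scaled with trimmed mean of M values (TMM) factors. Hepatocyte genes dominated every library, with Alb at 53020 to 95060 CPM. Cd44 had 14.2 to 30.0 CPM in old control livers and 13.1 to 29.0 CPM in the livers labelled knockout, and the log2 fold change was -0.25 with an SE of 0.30 (edgeR adjusted p 0.896), so directions for the knockout rest on the labels. By guide, Cd44 was 18.9 and 29.0 CPM with guide 4 (0.04 on the log2 scale against old controls, SE 0.33) and 17.6 and 13.1 CPM with guide 2 (-0.60, SE 0.34). For Cd44 both guide 4 livers were above both guide 2 livers (log2 fold change 0.64, SE 0.36, unadjusted edgeR p 0.107). The share of all genes higher in both guide 4 livers is not given here. In the other direction, 20.4% of all genes were lower in both guide 4 livers, so 2 livers against 2 separate easily. Neither guide differed from old controls past the threshold (edgeR adjusted p 0.998 and 0.778). Old control replicate 2 stood apart by its immune markers, with summed neutrophil markers at 298 CPM against at most 23.5 CPM in any other liver. Old control replicate 3 was the liver least like the others of its group, its counts differing from those of replicate 1 by 180.6 in chi-square per degree of freedom, the highest of the 12 pairs within groups. Some results are therefore also given with 1 of these livers left out.

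Promoter sequence is shown for the members whose 7 old livers all lay on one side of the 3 young livers and that had a promoter entry, with the start farthest upstream for each. Each line gives the 250 bases before the start, 5′ to 3′, from RefSeq on GRCm38.p6. They lie at chr2:118549687-118549936 on the minus strand (Bmf), chr2:128125788-128126037 on the plus strand (Bcl2l11), chr1:106714291-106714540 on the minus strand (Bcl2) and chr2:152831729-152831978 on the minus strand (Bcl2l1). Capitals mark matches on either strand to 7 motifs, none of which contains another. The FOXO site was searched as TGTTTAC. The E-box was searched as CACGTG. The cyclic AMP response element was searched as TGACGTCA. The AP-1 site was searched as TGACTCA. The NF-Y site was searched as CCAAT, and it is called the CCAAT box below. The GC box was searched as GGGCGG. The element bound by TBP near many starts was searched as TATAAA.
Bmf: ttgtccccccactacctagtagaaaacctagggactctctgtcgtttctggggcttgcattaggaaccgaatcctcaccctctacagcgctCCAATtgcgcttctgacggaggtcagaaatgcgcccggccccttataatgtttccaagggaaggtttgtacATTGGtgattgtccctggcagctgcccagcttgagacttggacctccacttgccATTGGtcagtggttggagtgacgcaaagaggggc
Bcl2l11: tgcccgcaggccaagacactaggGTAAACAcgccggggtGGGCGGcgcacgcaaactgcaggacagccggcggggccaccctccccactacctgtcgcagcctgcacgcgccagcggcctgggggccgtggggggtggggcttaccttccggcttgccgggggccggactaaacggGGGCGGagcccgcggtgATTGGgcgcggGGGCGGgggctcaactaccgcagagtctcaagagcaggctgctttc
Bcl2: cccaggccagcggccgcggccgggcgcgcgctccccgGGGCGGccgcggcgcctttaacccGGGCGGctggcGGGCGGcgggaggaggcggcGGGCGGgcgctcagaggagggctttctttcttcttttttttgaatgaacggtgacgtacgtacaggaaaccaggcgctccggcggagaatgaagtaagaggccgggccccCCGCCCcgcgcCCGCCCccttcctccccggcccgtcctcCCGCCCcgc
Bcl2l1: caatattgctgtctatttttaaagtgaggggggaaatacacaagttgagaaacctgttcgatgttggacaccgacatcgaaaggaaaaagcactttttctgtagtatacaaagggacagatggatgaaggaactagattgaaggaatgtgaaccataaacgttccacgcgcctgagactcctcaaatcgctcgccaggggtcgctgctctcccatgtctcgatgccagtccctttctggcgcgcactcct

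The Bmf window held 3 CCAAT boxes and no GC box, with a GC content of 54%. The Bcl2l11 window held 1 FOXO site, 1 CCAAT box and 3 GC boxes (72% GC), and the Bcl2 window held 7 GC boxes (74.8% GC). The Bcl2l1 window held none of the motifs (47.6% GC). Among 32851 windows of this length, covering 27025 genes, 3.17% held the FOXO site, 33.8% a CCAAT box, 32.7% a GC box, 6.02% an E-box, 1.55% the cyclic AMP response element, 4.46% the AP-1 site and 12.4% the TBP element. The median GC content of all windows was 52.4%. These matches describe letters in a window and no binding was measured. The windows of the members whose old and young livers overlapped are not printed, and 9 of the 10 members had an entry (Pmaip1 did not).

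Bmf, whose protein is held at the actin and myosin V cytoskeleton until stress frees it, was the member with the largest difference between old and young livers. It lies on chromosome 2, 118528757 to 118549687 on GRCm38, minus strand. Young replicates 1 to 3 had 1.78, 1.19 and 1.14 CPM of Bmf, from 29, 18 and 18 counts. Old control replicates 1 to 3 had 7.72, 11.1 and 7.06 CPM, from 157, 244 and 148 counts. Among knockout livers, guide 4 gave 6.62 and 5.63 CPM, whereas guide 2 gave 8.34 and 6.94 CPM. The 7 old livers were all above the 3 young livers, and the lowest old liver was 3.17 times the highest young one. The mean was 1.37 ± 0.353 CPM (SD, n = 3) in young and 8.63 ± 2.18 CPM (SD, n = 3) in old control livers, or 6.28-fold. On the log2 scale this was 2.65 (SE 0.27), and 2.42 without old control replicate 2. Ordered from the most positive to the most negative log2 fold change, Bmf stood at place 106 of 13909 genes. In bulk tissue a change in the number of cells of a type and a change in RNA per cell cannot be told apart.

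The other BH3-only genes differed less, and Bid did not follow. Pmaip1, which encodes NOXA, an antagonist of MCL1, had 0.979, 0.989 and 0.9503 CPM in young livers and 1.77, 4.51 and 1.81 CPM in old controls. In knockout livers, guide 4 gave 2.15 and 3.36 CPM, whereas guide 2 gave 2.64 and 1.98 CPM. All 7 old livers were above the young ones, while old control replicate 2 was far above the other old controls. The log2 fold change of Pmaip1 was 1.47 (SE 0.40) in old control against young livers, and 0.87 without old control replicate 2.

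Bbc3, which encodes PUMA, a classical p53 target, had 6.55, 9.23 and 8.55 CPM in young livers and 17.99, 17.7 and 11.8 CPM in old controls. For the knockout livers, guide 4 gave 14.5 and 8.68 CPM, whereas guide 2 gave 15.3 and 14.9 CPM. Knockout replicate 2 fell inside the young range, and the other 6 old livers lay above it. The log2 fold change of Bbc3 in old control against young livers was 0.97 (SE 0.25). Bbc3 lies on chromosome 7, 16308393 to 16318205, plus strand.

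Bcl2l11, which encodes BIM, had 5.45, 3.30 and 3.49 CPM in young livers and 8.01, 9.25 and 5.96 CPM in old controls. With Cd44 targeted, guide 4 gave 6.57 and 9.08 CPM, whereas guide 2 gave 9.04 and 7.35 CPM. The groups did not overlap, but only narrowly, since the lowest old liver was 1.1 times the highest young one. Its log2 fold change was 0.92 (SE 0.25). Bid, which is activated by caspase 8 cleavage, had 13.8, 13.3 and 12.0 CPM in young, 14.0, 15.3 and 12.0 CPM in old control, and 10.9 to 15.1 CPM in knockout livers. The Bid groups overlapped fully, with a log2 fold change of 0.08 (SE 0.16) and a 95% interval from -0.26 to 0.42.

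The pore-forming effectors showed no separation of old from young livers. Bax had 27.4, 30.3 and 26.6 CPM in young livers and 44.8, 31.7 and 18.4 CPM in old controls, so the old controls lay both above and below the young range. Among knockout livers, guide 4 gave 33.6 and 42.8 CPM, whereas guide 2 gave 33.0 and 40.3 CPM, all above the young livers. Bak1 had 18.1, 18.7 and 16.7 CPM in young, 12.8, 28.5 and 22.0 CPM in old control and 14.8 to 20.5 CPM in knockout livers. The log2 fold changes in old control against young livers were 0.17 (SE 0.25) for Bax and 0.24 (SE 0.24) for Bak1. Their signs turned when single livers were left out, to -0.17 for Bax without old control replicate 1 and to -0.04 for Bak1 without old control replicate 2. Without old control replicate 3, Bax was at 0.44. Bax shares its position with a gene model on the same strand (Gm45808), and Bak1 and Bid overlap genes on the opposite strand (Ggnbp1 and Bcl2l13), so some of their reads may belong to a neighbour.

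The guardians went 3 different ways. Bcl2l1, which encodes BCL-XL, was the member that was lower in old livers. It had 74.4, 73.3 and 63.7 CPM in young livers against 34.8, 45.8 and 36.4 CPM in old controls. In knockout livers, guide 4 gave 45.0 and 40.8 CPM, whereas guide 2 gave 42.4 and 42.1 CPM, and the highest old liver was below the lowest young one. The mean was 70.5 ± 5.88 CPM (SD, n = 3) in young and 39.0 ± 5.94 CPM (SD, n = 3) in old control livers. On the log2 scale the difference was -0.85 (SE 0.13). Bcl2l1 lies on chromosome 2, 152780668 to 152831728, minus strand.

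Bcl2, the founding guardian, which is abundant in lymphocytes, had 1.59, 1.65 and 1.27 CPM in young livers and 3.34, 4.74 and 1.81 CPM in old controls. For the knockout livers, guide 4 gave 2.79 and 3.75 CPM, whereas guide 2 gave 2.78 and 3.62 CPM. Old control replicate 3 was only slightly above the young livers. The log2 fold change of Bcl2 was 1.13 (SE 0.34), 0.77 without old control replicate 2 and 1.42 without replicate 3. An antisense gene (D630008O14Rik) overlaps Bcl2, and whether the counting used strand is not given in the sources used here. Mcl1, a short-lived guardian that hepatocytes need, had 159.5, 134.8 and 134.6 CPM in young livers and 150.8, 148.1 and 141.4 CPM in old controls. With guide 4 it had 113 and 134.1 CPM and with guide 2 it had 152.2 and 138.3 CPM. Its groups overlapped, with a log2 fold change of 0.04 (SE 0.14) and a 95% interval from -0.26 to 0.34.

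**Figure D1:**
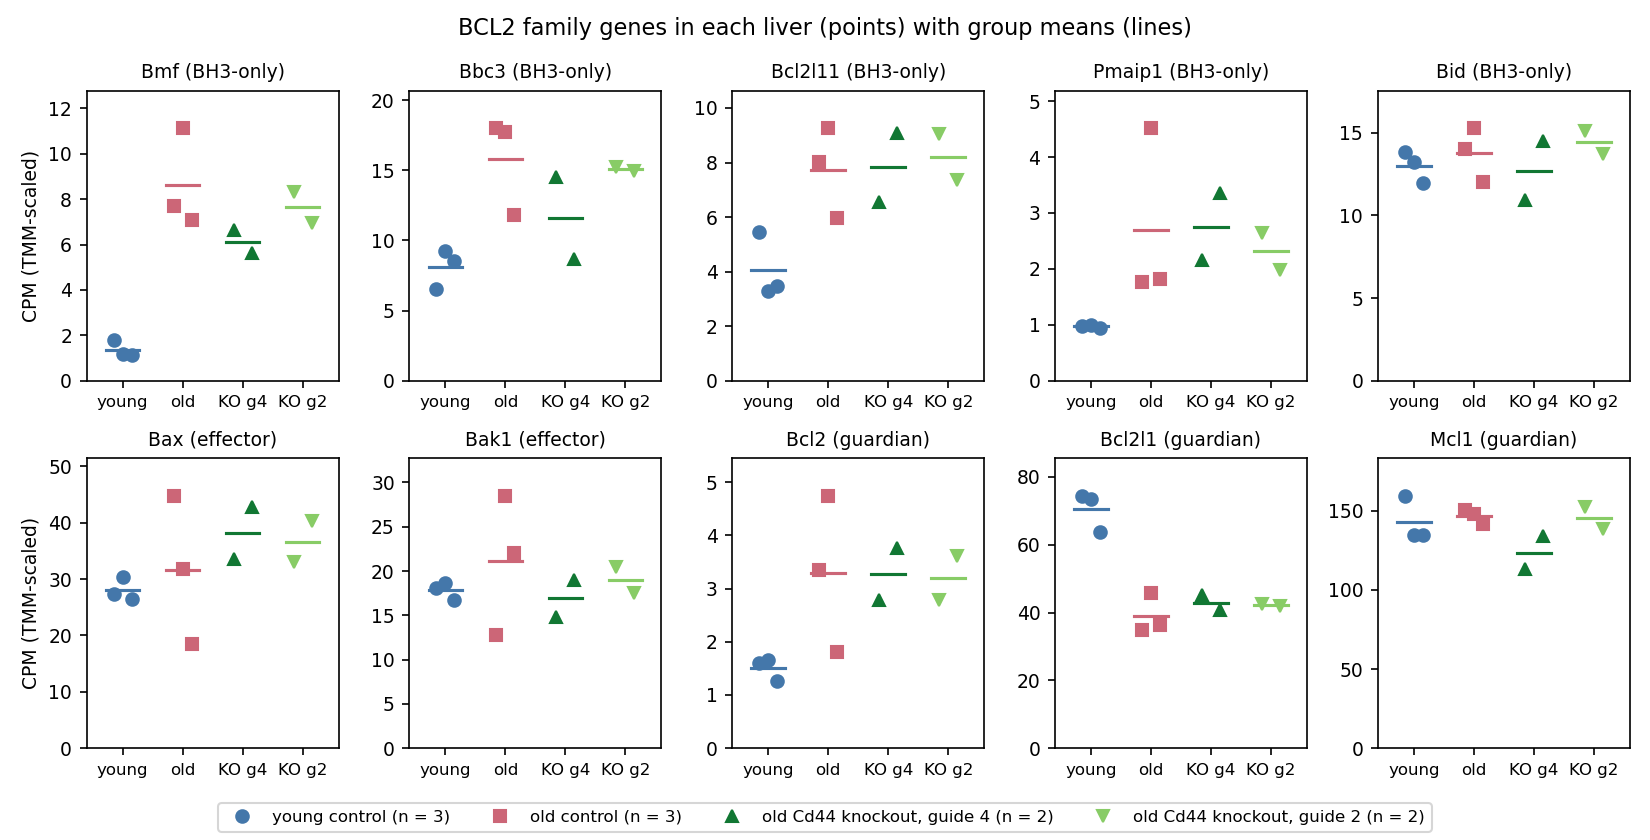
Each panel plots 1 gene, with TMM-scaled CPM on the vertical axis from 0 and the livers by group on the horizontal axis; points are livers and lines are group means (n = 3, 3, 2 and 2). Bmf lies between 1.14 and 1.78 CPM in young livers and between 5.63 and 11.1 CPM in the 7 old livers, while Bcl2l1 is the panel in which the young livers lie highest, at 63.7 to 74.4 CPM.

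Counted over the family, 6 of 10 members had an adjusted p under 0.05 in old control against young livers by edgeR, 5 higher (Bmf, Bbc3, Bcl2l11, Pmaip1 and Bcl2) and 1 lower (Bcl2l1). Over all genes tested, 14.1% passed as higher and 8.66% as lower. The median log2 fold change was 0.58 over the members and 0.04 over all genes. Since this contrast chose the family, the counts are a description only. They were also unstable: 2 members passed without old control replicate 2, without young replicate 2 or without young replicate 3, 3 passed without young replicate 1, and 3 passed when only these groups entered the fit. As part of this description, Bmf, whose rise chose the family, and Bcl2l1 were past the threshold in each of the 6 fits that left out 1 liver. All 7 old livers lay above all 3 young livers for 4 members (Bmf, Bcl2l11, Pmaip1 and Bcl2), against 13.5% of all genes, and below them for 1 member (Bcl2l1), against 11.1% of all genes. With library totals in place of TMM factors the median log2 fold change of all genes in old control against young livers moved from 0.04 to 0.34, and that of Bcl2l1 was -0.54, still lower. With that scaling 91.6% of the genes called were higher, against 62% with TMM.

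Levels were compared between genes per kilobase of exon, using the union of annotated exons. In young livers Mcl1 stood first with 41.8 ± 4.19 CPM per kb, followed by Bax (17.8 ± 1.26) and Bcl2l1 (15.4 ± 1.28; SD, n = 3 for each). Bmf had 0.260 ± 0.0673 CPM per kb (SD, n = 3), the next to last level, and only Bcl2, with 0.164 ± 0.0225 CPM per kb (SD, n = 3), was lower. In old control livers Mcl1 was again first with 42.9 ± 1.41 CPM per kb and Bax second with 20.1 ± 8.37 CPM per kb (SD, n = 3 each). Bmf, with 1.64 ± 0.415 CPM per kb (SD, n = 3), stood above Pmaip1 (0.988 ± 0.575; SD, n = 3) and Bcl2l11 (0.964 ± 0.207; SD, n = 3), but the ranges of Bmf and Pmaip1 overlapped. Bax, Bak1, Bcl2l1 and Bbc3 formed a run of neighbours in the old controls whose ranges each overlapped the next. In knockout livers Bmf was at 1.31 ± 0.213 CPM per kb (SD, n = 4), and its range overlapped that of Bcl2l11 (0.998 ± 0.156 CPM per kb; SD, n = 4). Per length, each BH3-only member was below the guardian Mcl1 in all 3 groups.

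Whether hepatocyte Cd44 knockout altered the family was asked by comparing old knockout with old control livers. None of the 10 members had an adjusted p under 0.05 by edgeR's quasi-likelihood test, and none had an unadjusted p under 0.05. Over all genes 0% passed the adjusted threshold and 6.59% the unadjusted one. By DESeq2 0 members passed as well, and the same held for limma voom. The difference was largest in size for Bmf, which averaged 6.88 ± 1.12 CPM in knockout (SD, n = 4) and 8.63 ± 2.18 CPM in old control livers (SD, n = 3). On the log2 scale the difference was -0.33 (SE 0.22), the 95% interval ran from -0.81 to 0.15 and the edgeR adjusted p was 0.798. Without old control replicate 2 it was -0.10. Knockout replicate 3, at 8.34 CPM, was above 2 of the 3 old controls, so the groups overlapped.

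The other members differed by less. Log2 fold changes in knockout against old control livers were -0.25 for Bbc3, 0.24 for Bax, -0.23 for Bak1, -0.13 for Mcl1, 0.13 for Bcl2l1, -0.09 for Pmaip1, 0.05 for Bcl2l11, -0.03 for Bcl2 and -0.02 for Bid, and the lowest edgeR adjusted p among them was 0.847. The intervals bound which differences between livers with these labels could have been missed. They do not bound an effect of Cd44 loss, since Cd44 counts did not differ past the threshold. For Bcl2l1 the 95% interval ran from -0.14 to 0.39 and for Mcl1 from -0.41 to 0.15, the narrower end of the family. For Pmaip1 it ran from -0.84 to 0.67 and for Bcl2 from -0.68 to 0.62. In the fit of all 10 livers, a 2-fold change in either direction lay outside the interval of each of the 10 members. Intervals are not given for fits with a liver left out. The signs of Bak1, Bcl2, Bid and Pmaip1 turned when old control replicate 2 was left out, with Pmaip1 at 0.51 and Bcl2 at 0.33. Those of Bax and Bcl2l11 turned without old control replicate 3, to -0.03 and -0.1.

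The guides to Cd44 were compared with 2 livers each. No member passed between guide 4 and guide 2 by edgeR, each with an adjusted p of 1 and 0 with an unadjusted p under 0.05, and DESeq2 called 0 members. Over all genes 0.0216% passed, and 4.34% had an unadjusted p under 0.05. Bmf (5.63 and 6.62 against 6.94 and 8.34 CPM), Bbc3 (8.68 and 14.5 against 14.9 and 15.3 CPM) and Mcl1 (113 and 134.1 against 138.3 and 152.2 CPM) were lower in both guide 4 livers. Among all genes 20.4% were lower in this way, since 2 livers against 2 separate easily. The log2 fold change of guide 4 against guide 2 was -0.32 (SE 0.29) for Bmf, with a 95% interval from -0.96 to 0.32. It was -0.38 (SE 0.29) for Bbc3, with an interval from -1.02 to 0.25, and this rested on knockout replicate 2, without which it was -0.06. Set against the old controls, Bmf differed by -0.18 (SE 0.26) with guide 2 and by -0.50 (SE 0.26) with guide 4, with edgeR adjusted p of 0.937 and 0.98.

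**Figure D2:**
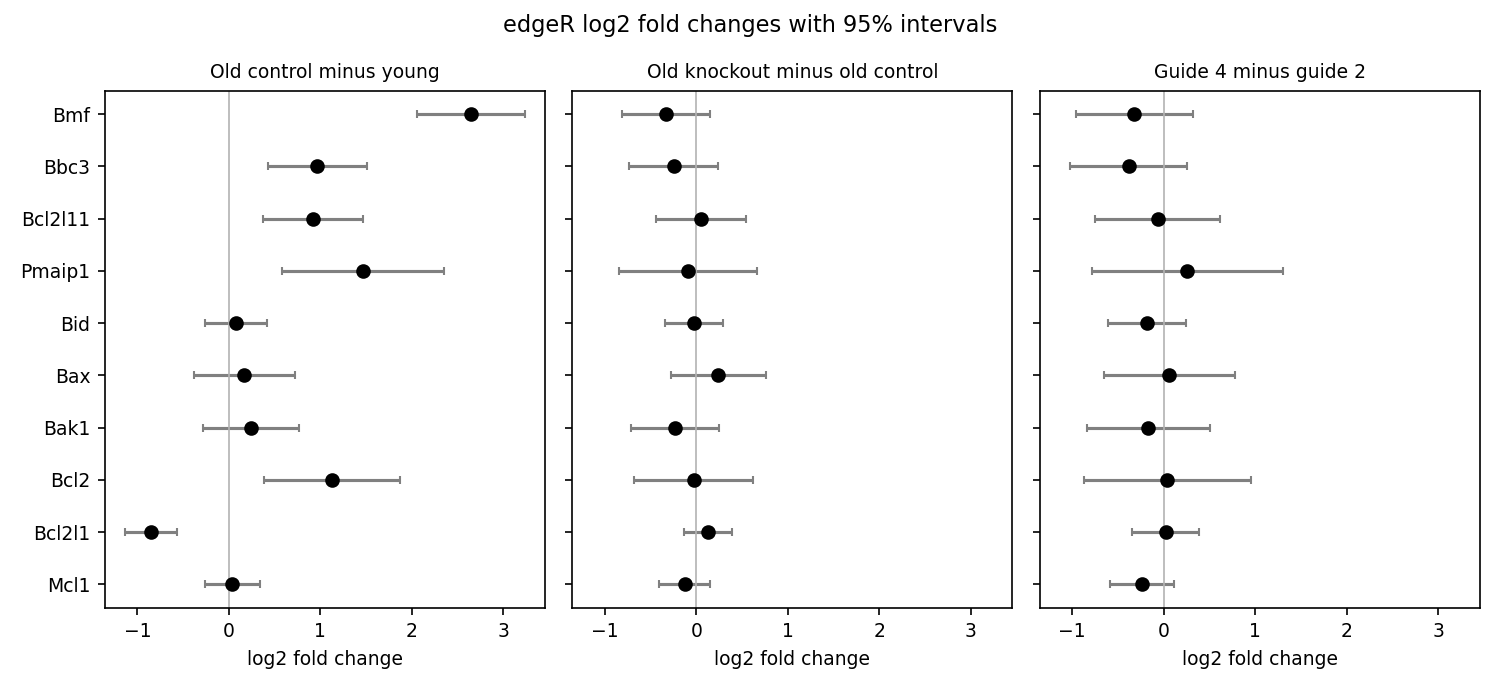
Points are edgeR log2 fold changes of the 10 members on the horizontal axis, with 95% intervals as bars, for old control minus young, old knockout minus old control and guide 4 minus guide 2 livers. In the first panel Bmf stands at 2.65 and Bcl2l1 at -0.85, while in the other panels every interval includes 0.

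Against young livers, which are shared with the contrast above, the knockout livers gave for each member values on the side already seen in their group means. The log2 fold change was 2.32 (SE 0.26) for Bmf, 1.38 (SE 0.39) for Pmaip1, 1.10 (SE 0.32) for Bcl2, 0.97 (SE 0.24) for Bcl2l11, 0.72 (SE 0.23) for Bbc3 and -0.73 (SE 0.12) for Bcl2l1. As a description only, since old livers chose the family, 4 members passed as higher and 1 as lower by edgeR, Bbc3 being the one of these 6 that did not, against 6.64% and 4.97% of all genes. Left-out livers moved the count of 5 to between 1 and 4, with the lowest without young replicate 2. Bmf, whose rise chose the family, passed in each of the 7 fits. Bax differed by 0.41 (SE 0.24) and Mcl1 by -0.09 (SE 0.13), the latter turning to 0.23 with library totals.

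How the members varied together was examined within the 7 old livers, which leaves out the young group. Bmf was compared with each of the other 9 members on log2 CPM, with exact permutation tests over the livers. The permutations pooled control and knockout livers, so differences between those groups enter the relations. With Bbc3 Pearson's r was 0.76 (exact permutation p 0.0631, adjusted over 9 relations 0.551) and Spearman's rho was 0.79 (exact permutation p 0.048, adjusted 0.216). Without the 2 livers farthest from the median of Bmf, r was 0.43. With Mcl1 r was 0.55 (exact permutation p 0.213) and rho was 0.86 (exact permutation p 0.0238, adjusted 0.214), and r was 0.82 without those livers. With Bcl2l1 r was 0.28 and with Bax it was -0.16. None of the 9 relations passed after adjustment, by either coefficient.

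Over all 10 livers, the genes whose log2 CPM followed Bmf most closely were Hdac11 (r = 0.978), Rab3d (r = 0.976), Tmem268 (r = 0.972), Rpusd1 (r = 0.972) and Tpcn2 (r = 0.972), out of 13908 genes. Hdac11 encodes a histone deacetylase and Rab3d a small GTPase of secretory vesicles. Hdac11 had 28.1 to 35.9 CPM in young livers and 52.6 to 64.7 CPM in old livers. Rab3d had 6.97 to 8.14 CPM in young and 12.4 to 15.2 CPM in old livers. Bcl2l11 was the member most like Bmf, with r = 0.908 at rank 267, and Bcl2l1 had r = -0.883. These values mainly restate the separation of old from young livers, so they are given without a p.

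**Figure D3:**
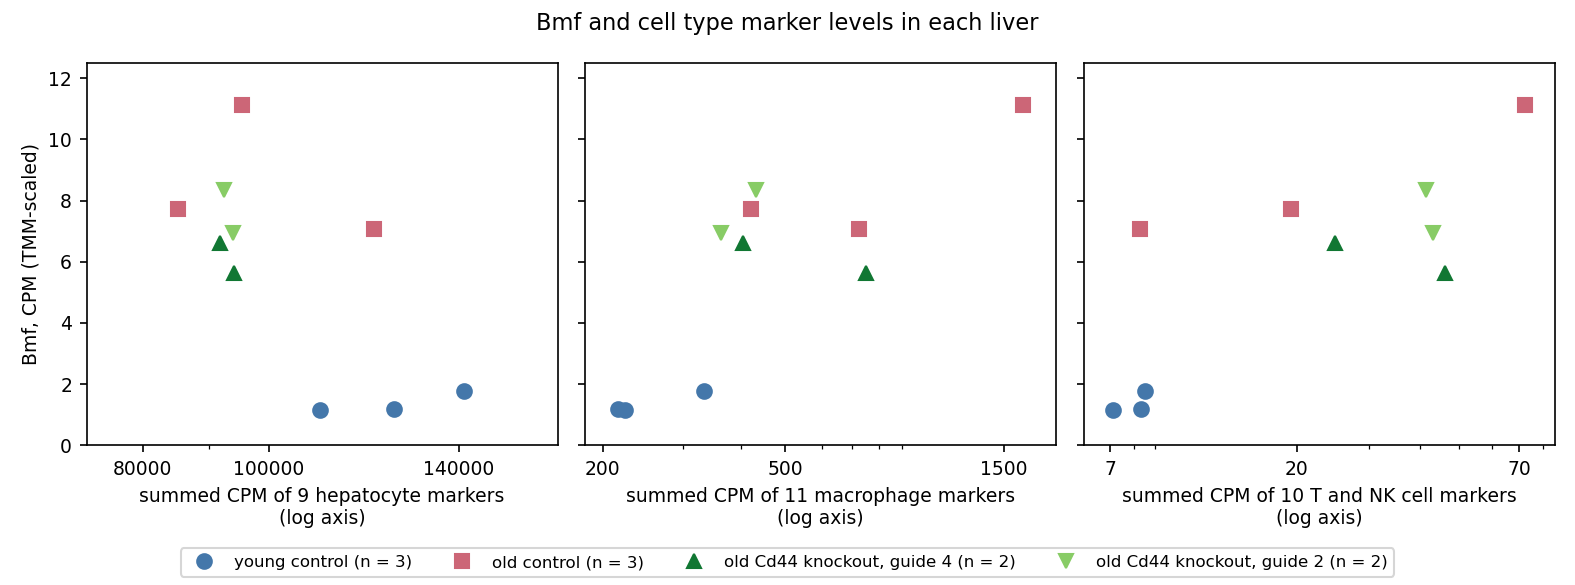
Bmf in CPM on the vertical axis is plotted for each of the 10 livers against the summed CPM of hepatocyte, macrophage, and T and NK cell markers on log horizontal axes; symbols give the group. The old control liver with 8.30 CPM of T and NK cell markers, inside the young range of 7.10 to 8.51 CPM, has 7.06 CPM of Bmf and 724.4 CPM of macrophage markers, against at most 1.78 and 333.3 CPM in young livers. The part of these cells in the Bmf values was not tested.

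Markers of other cell types moved with age beside the members. For the counts of markers called below, 14.1% of all genes were called higher and 8.66% lower in old control livers. Summed markers of macrophages (11 genes) were 216 to 333 CPM in young, 421 to 1652 CPM in old control and 362 to 751 CPM in knockout livers, with 8 of 11 genes called higher in old control livers. T and NK cell markers (10 genes, 4 called higher) were 7.10 to 8.51, 8.30 to 72.5 and 24.9 to 46.1 CPM in these groups. B and plasma cell markers (7 genes, 4 called higher) were 3.76 to 8.14, 8.40 to 34.8 and 22.1 to 30.0 CPM. Endothelial markers (9 genes, 7 called higher) were 169.5 to 236 CPM in young, 348 to 382 CPM in old control and 233 to 290 CPM in knockout livers. Stellate and fibroblast markers (9 genes, 5 called higher) were 156 to 295, 318 to 502 and 272 to 319 CPM, and cholangiocyte markers (6 genes, 5 of them tested, 0 called) were 49.0 to 105.4, 93.6 to 132.9 and 80.8 to 165 CPM.

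Neutrophil markers (8 genes, 5 of them tested, 4 called higher) were 3.74 to 9.97 CPM in young, 14.6 to 298 CPM in old control and 7.96 to 23.5 CPM in knockout livers, with Ltf and Camp at 0 in all 3 young livers. Gzmk, Pax5, Mpo and Cftr were each at 0 in 1 liver. Hepatocyte markers (9 genes, 2 called lower) summed to 109600 to 141400 CPM in young, 85200 to 120500 CPM in old control and 91770 to 93950 CPM in knockout livers. In old control replicate 3, T and NK cell (8.30 CPM), hepatocyte and cholangiocyte markers were inside the young range. Macrophage (724.4 CPM), endothelial (348.4 CPM), and stellate and fibroblast markers (318 CPM) were above it. So were its neutrophil (14.6 CPM) and B and plasma cell markers (8.40 CPM, against at most 8.14 CPM in young livers). In this liver Bmf was 7.06 CPM, Bcl2 was 1.81 CPM and Pmaip1 1.81 CPM. Old control replicate 2 had the highest sums of neutrophil, macrophage, T and NK cell, B and plasma cell, endothelial, and stellate and fibroblast markers. Bmf, Pmaip1, Bcl2l11, Bid, Bcl2 and Bak1 were also highest of the 10 livers there. The share of all genes highest in that liver is not given here. In knockout against old control livers, 9 of 9 endothelial, 11 of 11 macrophage and 5 of 5 tested neutrophil markers had lower fitted values. Of these, 7, 4 and 5 had an unadjusted p under 0.05, against 6.59% of all genes, and 0 were called by edgeR. Stellate and fibroblast markers were also lower in 9 of 9, with 2 at an unadjusted edgeR p under 0.05, and hepatocyte markers in 7 of 9. Higher fitted values were seen for 6 of 7 B and plasma cell, 6 of 10 T and NK cell and 2 of 5 tested cholangiocyte markers. The neutrophil sums of old control replicates 1 and 3 (16.3 and 14.6 CPM) lay inside the knockout range. So did their macrophage sums (421 and 724 CPM), and only replicate 2 was above both ranges (298 and 1652 CPM). The part of these cells in the members' differences was not tested.

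The wider apoptosis machinery was read from lists of other genes. Of 16 other BCL2 family genes 13 were tested, and 1 was called in old control against young livers, higher, where 14.1% of all genes were. This was Bcl2a1b, a guardian of leukocytes, with 1.01 to 1.78 CPM in young and 2.85, 11.2 and 2.81 CPM in old control livers, a log2 fold change of 1.97 (SE 0.57); the Bcl2a1 genes are near-identical copies, so its reads are uncertain. Bad, Bcl2l2 and Bik differed by 0.18, 0.10 and 0.71 on the log2 scale and were not called. Hrk, Bcl2l10 and Bcl2l15 had too few counts to be tested. Among 12 genes for tethers and turnover of family members 1 was called, lower, near the 8.66% of all genes that were. This was Usp9x, a deubiquitinase that stabilises MCL1, with a log2 fold change of -0.43 (SE 0.13). Median log2 fold changes were 0.26 for the other family genes and -0.18 for tethers and turnover, beside 0.04 for all genes.

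Of 17 genes of the apoptosome and caspases, 5 were called higher and 1 lower in old control livers, against 14.1% and 8.66% of all genes, with a median log2 fold change of 0.30 beside 0.04 for all genes. Apaf1, the scaffold of the apoptosome, had 3.31, 2.51 and 2.34 CPM in young and 5.26, 7.52 and 4.44 CPM in old control livers, a log2 fold change of 1.08 (SE 0.25). The initiator Casp9, the executioner Casp6, Casp2 and the inhibitor of apoptosis Birc3 were higher by 0.47, 0.46, 0.60 and 0.84 on the log2 scale. Cycs, which encodes somatic cytochrome c, had 182.6, 234 and 178 CPM in young and 129.3, 123.8 and 116 CPM in old control livers, a log2 fold change of -0.69 (SE 0.15).

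In the death receptor pathway 13 of 14 genes were tested, with 1 called higher and 2 lower, near the 14.1% and 8.66% of all genes, and a median log2 fold change of -0.04 beside 0.04. Ripk3, the kinase of necroptosis, had 1.16, 1.12 and 1.27 CPM in young, 3.69, 6.25 and 3.48 CPM in old control and 2.27 to 2.92 CPM in knockout livers. Its log2 fold change in old control against young livers was 1.91 (SE 0.28). In knockout against old control livers the log2 fold change of Ripk3 was -0.83 (SE 0.24), with an edgeR adjusted p of 0.744, where 0% of all genes passed. Mlkl, its substrate, differed by 0.17 (SE 0.25) with age and was not called. The receptors Fas and Tnfrsf1a were lower in old control livers, by -0.48 (SE 0.13) and -0.76 (SE 0.23).

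Among upstream regulators of BH3-only genes, 15 of 16 were tested and 0 were called in old control against young livers by edgeR, with 2 at an unadjusted p under 0.05 where 38.5% of all genes had one. E2f1 had 2.85 to 3.67 CPM in young and 3.98 to 6.38 CPM in old control livers. Hdac1 had 22.5 to 24.6 and 25.1 to 32.8 CPM in these groups. For both genes the groups did not overlap, and the share of all genes without overlap is not given here. Log2 fold changes were -0.33 (SE 0.18) for Foxo1, 0.26 (SE 0.58) for Foxo3, -0.21 (SE 0.15) for Trp53, -0.41 (SE 0.29) for Ddit3 and 0.06 (SE 0.27) for Jun. Of 14 p53 targets outside the family, 1 was called higher and 5 lower, against 14.1% and 8.66% of all genes, with a median log2 fold change of -0.31 beside 0.04. Cdkn1a, which encodes the cell cycle inhibitor p21, had 85.3, 157 and 77.4 CPM in young, 27.5, 34.0 and 20.1 CPM in old control and 28.8 to 38.7 CPM in knockout livers, a log2 fold change with age of -1.97 (SE 0.28). Aen, Zmat3, Ei24 and Tigar were lower by -0.69, -0.48, -0.48 and -0.65 on the log2 scale. Phlda3, an inhibitor of AKT, was higher by 1.07 (SE 0.33), though old control replicate 3, at 2.58 CPM, was close to the young livers at 2.20 to 2.31 CPM. Bbc3 and Pmaip1, which p53 also induces, had higher means in old control than in young livers.

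In old knockout against old control livers 0 genes of these lists passed by edgeR. The p53 targets had 6 of 14 genes with an unadjusted p under 0.05, against 6.59% of all genes, and 13 of 14 were higher in knockout livers, with a median log2 fold change of 0.32 beside -0.02 over all genes. Knockout and old control livers did not overlap for 5 of the 14, all higher, against 2.84% of all genes. Eda2r, a receptor of the tumour necrosis factor family, had 2.80, 2.14 and 1.77 CPM in old control and 3.31 to 5.04 CPM in knockout livers, which is 0.88 on the log2 scale (SE 0.24; adjusted p 0.744 by edgeR). Its young livers had 2.97 to 3.43 CPM. Aen, a nuclease, had 13.4 to 14.2 CPM in old control and 15.4 to 20.1 CPM in knockout livers, which is 0.34 on the log2 scale (SE 0.12; adjusted p 0.744 by edgeR). Bbc3 and Pmaip1 had -0.25 and -0.09 on the same scale. Against young livers, the knockout livers gave calls for Birc3 (0.79), Tnfsf10, the ligand TRAIL (0.90), Ripk3 (1.09), Tnfrsf1a (-0.88), Stat3 (-1.02), Cdkn1a (-1.59) and Phlda3 (1.44), each a log2 fold change. Stat3 was 237 to 271 CPM in young, 93.6 to 156.8 CPM in knockout and 104.4, 122.4 and 272.4 CPM in old control livers, where replicate 3 was above every knockout liver. Between guides 0 list genes were called, the smallest edgeR adjusted p being 0.845 for Mlkl, at -0.69 on the log2 scale.

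**Figure D4:**
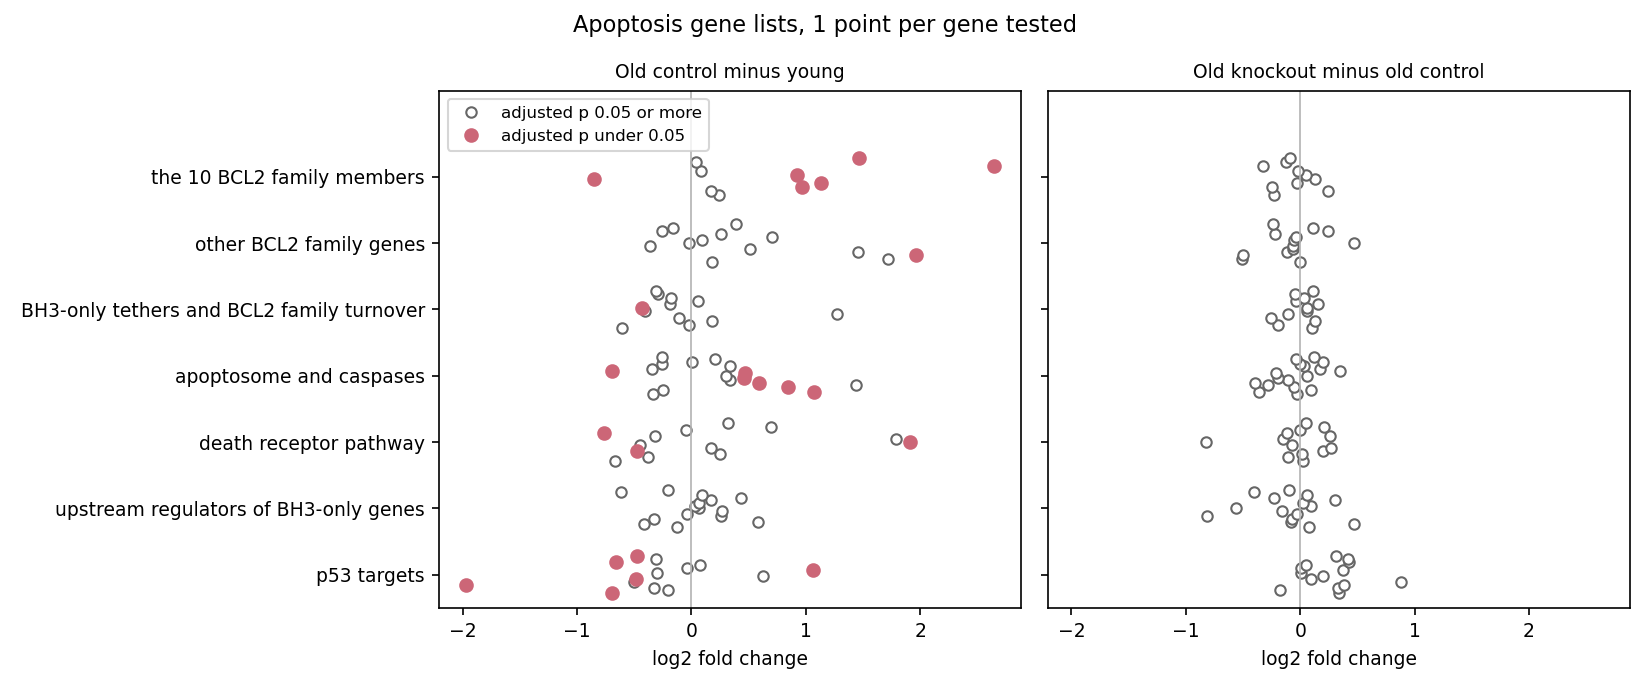
Each point is 1 gene tested, with its edgeR log2 fold change on the horizontal axis and its list on the vertical axis, for old control minus young and old knockout minus old control livers; filled points had an adjusted p under 0.05. In the first panel 6 of the 10 members are filled, with Bmf farthest to the right at 2.65 and Cdkn1a farthest to the left of all lists at -1.97, and in the second panel 0 points are filled.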

How the data were processed

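The 10 whole livers were profiled by RNA sequencing of polyadenylated RNA on an AVITI sequencer, per the labels' protocols. What the authors deposited is 1 table that gives unnormalized read counts by gene symbol. The submitters' processing notes name FastQC 0.11.8, Trim Galore 0.4.4, STAR 2.5.3a, HOMER and the build mm10; the counting settings, annotation and use of strand are not given in the sources used here. Gene positions and exon lengths are those of GENCODE M21 on GRCm38, the same build as mm10. Of 173 genes in the lists, 167 matched a symbol of the table.

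Counts were tested with edgeR 4.0.16 in R 4.3.3 using quasi-likelihood F-tests; all 10 livers entered 1 fit with a term for each group (knockout livers split by guide for the guide comparison), TMM factors and the filterByExpr filter with a minimum count of 10 and a minimum total of 15. Benjamini-Hochberg adjustment ran over 13909 genes, with a threshold of 0.05. The standard error is the log2 fold change divided by the square root of F, and 95% intervals use the t distribution. Log2 CPM for correlations had a prior count of 2. DESeq2 1.42.0 and limma 3.58.1 (voom) were alternatives, beside other scalings, no filter, fewer groups and left-out livers. The procedure was tested on simulated data. Floors of 3 counts cover counting error only, since reads carry no molecular identifiers. No pair of livers within a group was alike enough to be 1 library, the lowest chi-square divided by its degrees of freedom being 21.6. The members and lists were chosen with earlier results of these data known. The text names all members, list genes with an adjusted p under 0.05 (at most 5 per list, otherwise the smallest p), the 5 genes most like Bmf, and Cd44; list genes named beyond this were chosen for their role after their values were seen.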

Additional observations from a re-analysis of the deposited data

Results flagged for a closer look

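Bbc3 in the knockout livers had 1 liver far from the other 3. Replicate 2 had 8.68 CPM, against 14.5, 15.3 and 14.9 CPM in replicates 1, 3 and 4, a gap of 0.889 of the whole range of the group. Chance gives such a gap in about 1 of 20 groups, and 10 members were examined in this way. Replicate 2 also had the highest macrophage markers of the knockout livers, at 751 CPM; their part in the Bbc3 value was not tested. Groups of 3 livers were not examined.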

How the results depend on the processing

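Among all genes the counts called depended on the setting. Old control against young livers gave 3172 genes, 1192 with only these groups in the fit and 396 to 5327 with 1 liver left out, the lowest without young replicate 2 and the highest without old control replicate 3. Old knockout against old control gave 0, with 8 by DESeq2, 2 with guide 2 livers only and 0 to 3 with 1 liver left out. Old knockout against young gave 1614, with 2803 by DESeq2, 969 by limma voom, 4223 with only these groups, 3585 with library totals and 56 to 1652 with 1 liver left out. Guide 4 against guide 2 gave 3, with 73 by DESeq2, 10 without the filter, 31 with only these groups and 0 in each fit with 1 liver left out, where a lone liver is assumed to vary like the other groups. The share of calls that were higher in knockout against young livers was 57.2%, 92.9% with library totals and 43.9% by voom. Members called with age went from 6 to 3 with only these groups and to between 2 and 6 with 1 liver left out, and in knockout against young from 5 to 3 by voom and to between 1 and 4. In knockout against old control and between guides 0 members were called under every setting run. Signs that turned belonged to uncalled members. Against young livers, knockout Bak1 was -0.01 by DESeq2 and 0 with RLE factors, and Mcl1 0.23 with library totals. Against old control, Bcl2 was 0.06 and Pmaip1 0.04 by voom, Bid 0.08 with guide 2 only and Pmaip1 0.04 with guide 4 only. With 1 liver left out, log2 fold changes with age ran from -0.04 to 0.5 (Bak1), -0.17 to 0.44 (Bax), 0 to 0.16 (Bid) and -0.01 to 0.12 (Mcl1). In knockout against old control they ran from -0.49 to 0.05 (Bak1), -0.03 to 0.58 (Bax), -0.32 to 0.33 (Bcl2), -0.1 to 0.2 (Bcl2l11), -0.11 to 0.07 (Bid) and -0.31 to 0.51 (Pmaip1). In knockout against young they ran from -0.06 to 0.09 (Bak1) and 0 to 0.15 (Bid). Between guides they ran from -0.12 to 0.22 (Bax), -0.19 to 0.24 (Bcl2), -0.05 to 0.09 (Bcl2l1), -0.32 to 0.15 (Bcl2l11), -0.4 to 0.01 (Bid) and -0.11 to 0.53 (Pmaip1). The cause of these changes was not tested. No paired analysis was possible because nothing in the sample labels ties a liver of 1 group to a liver of another. Depth limits Bmf, Pmaip1 and Bcl2 most.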
